A study of Mus musculus with 965 samples.

Results

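Fam181b, Pdgfra, Rspo3, Cdh11, Sema3a, Zfhx4, Tgfb2 and Fgf10 are 8 genes that were low in early embryoid bodies and carried reads in every cell line 3 days later. They were selected on measured values, out of 36849 genes in the table, for a low sum of counts at day 3 and a higher one at day 6 in all 5 clones. The difference between those days is therefore given as a description without a test. Examined here were which single cells held the reads, what else those cells carried, how clones differed and what happened by day 8. The choice did not use the spread of reads over cells or the day 8 sums. It did use the day 3 and day 6 sums of each clone.

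Embryoid bodies (EBs) are floating aggregates that mouse embryonic stem cells of the E14 line form once leukemia inhibitory factor is withdrawn, and in which derivatives of the germ layers appear. Single live cells were sorted into plates and read by full-length Smart-seq2 RNA sequencing. The 3BKO cells lacked Dnmt3b on both alleles and came from clones 3B126 and 3B77, the 3AKO cells lacked Dnmt3a on both alleles and came from clones 3A2 and 3A38, and WT was 1 culture of the unmodified line. Both genes encode de novo DNA methyltransferases. There were 372 3BKO, 363 3AKO and 230 WT cells, of which 365 were taken at day 3, 348 at day 6 and 252 at day 8. Each clone stands for 1 edited cell line, so spread between clones of a genotype is the only replicate error. No label said whether the days of a clone came from separate cultures, and clone 3A2 had no day 8 cells here.

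As background, cells of the early embryo first resemble epiblast and then separate into a neural branch and a mesodermal branch, and many mesodermal cells later become mesenchyme, loose cells that lay down collagen. Secreted factors and their receptors steer that separation, while cadherins and guidance cues set how cells adhere and move. Among the 8 genes, Pdgfra encodes a receptor for platelet-derived growth factors that is widely used as a marker of mesoderm and mesenchyme. Rspo3, Tgfb2 and Fgf10 encode secreted ligands: an R-spondin that strengthens Wnt signalling, a transforming growth factor beta, and a fibroblast growth factor known from limb, lung and heart-forming mesoderm. Sema3a encodes a secreted guidance cue for axons and migrating cells, and Cdh11 a cadherin typical of mesenchyme. Zfhx4 encodes a large zinc-finger homeobox protein, and Fam181b a protein that binds TEAD transcription factors and is known from the developing nervous system.

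All 8 are protein-coding genes. On GRCm38, with the GENCODE M21 annotation, Fam181b lies at chr7:93079865-93081867, Pdgfra at chr5:75152292-75198215, Rspo3 at chr10:29452416-29535867, Cdh11 at chr8:102632095-102785642, Sema3a at chr5:13125414-13602565, Zfhx4 at chr3:5218526-5415857, Tgfb2 at chr1:186622792-186705989 and Fgf10 at chr13:118669791-118792115. Exons of 5 of them share bases with a gene on the opposite strand: Gm9934 for Fam181b, Gm42802 and Gm42803 for Pdgfra, Gm48159 for Rspo3, Gm29491 for Tgfb2 and Gm16263 for Fgf10. Whether the counting used strand is not given in the sources read, and reads of such pairs cannot be told apart.

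The 250 bases before the RefSeq start are printed for 3 of the genes, because at day 6 Fam181b shared few cells with Pdgfra or Tgfb2, and because the deleted enzymes methylate CpG dinucleotides. Capitals mark each CpG. The windows are those of RefSeq on GRCm38.p6: chr7:93079629-93079878 on the plus strand for Fam181b, chr5:75152001-75152250 on the plus strand for Pdgfra, and chr1:186705990-186706239 on the minus strand for Tgfb2.
Fam181b: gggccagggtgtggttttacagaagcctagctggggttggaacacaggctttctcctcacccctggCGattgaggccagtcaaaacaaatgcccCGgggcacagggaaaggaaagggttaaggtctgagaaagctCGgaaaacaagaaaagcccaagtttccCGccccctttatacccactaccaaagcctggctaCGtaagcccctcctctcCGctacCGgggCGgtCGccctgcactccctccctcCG
Pdgfra: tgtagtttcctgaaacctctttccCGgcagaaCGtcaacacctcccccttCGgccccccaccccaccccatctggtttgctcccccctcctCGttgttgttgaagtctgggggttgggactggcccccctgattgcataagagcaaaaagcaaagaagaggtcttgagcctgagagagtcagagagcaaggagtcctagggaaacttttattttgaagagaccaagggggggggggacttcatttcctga
Tgfb2: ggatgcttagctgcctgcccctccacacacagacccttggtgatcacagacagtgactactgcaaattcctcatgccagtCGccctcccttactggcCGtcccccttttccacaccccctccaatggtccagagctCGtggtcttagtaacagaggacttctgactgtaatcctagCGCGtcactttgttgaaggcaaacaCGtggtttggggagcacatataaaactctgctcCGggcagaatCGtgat
Fam181b had 10 CpG in this window, Pdgfra 4 and Tgfb2 8, against a median of 6 over 32817 windows of the same length. Of the 8 genes 5 matched an entry of the promoter table, which also gave 2 CpG for Sema3a and 8 for Fgf10. A Tcf/Lef letter string, CTTTGNT on either strand, was found in the windows of Fam181b, Pdgfra, Tgfb2 and Fgf10 and in 16% of all windows. The string TATAAA, on either strand, was found for Fam181b and Tgfb2 and in 12.4% of all windows, and a forkhead string, GTAAACA, for Fgf10 and in 3.16%. A Tead string (GGAATG, 12.6% of all windows), a Gata string (AGATAA, 9.99%) and the CAGCTG form of the E-box (13.01%) were searched on both strands. They were in none of the 5. Other forms of the E-box were not searched, and the Tgfb2 window holds CACGTG. No methylation was measured in these libraries, and a matching string is a description of letters only.

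Depth was 50096 to 3442378 reads per cell with a median of 255315, and 9810248 to 44529830 reads per sum of clone and day. At day 3, 333 of 365 cells carried the epiblast list (3 of Pou5f1, Nanog, Tdgf1, Lefty1, Utf1 and Fgf5). Dnmt3a was at 13 to 24.1 CPM (counts scaled to 1e+06 reads) in day 3 3AKO sums and at 118 to 153 CPM in the other day 3 sums, and Dnmt3b at 17.8 to 35.3 CPM in 3BKO and at 239 to 285 CPM in the others. At day 6 Dnmt3a was at 2.97 to 3.13 CPM in 3AKO sums and at 14.1 to 32.8 CPM in the others, whereas Dnmt3b overlapped, with 13.4 to 37.3 CPM in 3BKO sums and 11.9 to 69.7 CPM in the others, and at day 8 it was not lower in 3BKO. At day 8 the library labelled 3B77 had 3 or more reads of Y-linked genes in 11 of 40 cells (27.5%, exact 95% interval 14.6 to 43.9), whereas none of the 150 cells of 3B77 taken earlier did (exact upper 95% bound 2.43%). Plate C344, which held 68 of the 89 WT day 8 cells, had no such cell (exact upper 95% bound 5.28%), against 59 of 141 WT cells at days 3 and 6. The library labelled 3B77 thus went against its label, and plate C344 differed from the other WT plates. Day 8 results are therefore given with and without these 2 doubted libraries, and this limit holds wherever 3B77 or WT at day 8 is named. All 3AKO cells were batch 1, WT and 3B126 batch 2, and 3B77 batch 3, so that only 3B126 and WT shared a batch, and in every other contrast genotype and batch cannot be told apart.

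Counts were summed over the cells of a clone and day, and sums were scaled to CPM with TMM factors. In such sums fewer cells of a type and less RNA per cell cannot be told apart. Levels are compared within a gene only, since CPM is not corrected for transcript length. Among all 24083 genes tested, 1287 (5.34%) had a higher day 6 than day 3 sum in 5 of 5 clones, and 356 (1.48%) had every day 6 sum above every day 3 sum. The 8 genes were selected for this, so nothing is read from their count. The fit put 9 genes (0.0374%) past an adjusted p of 0.05 for a higher day 6 level, the 8 genes and Asb4, and 24 genes in either direction with the clone as a replicate block. Since these sums chose the 8 genes, that is no test of them. The count was unstable, with 347, 115, 1 and 317 genes called higher when 3A2, 3A38, 3B126 or 3B77 was left out. Asb4 encodes an ankyrin-repeat and SOCS-box protein. The highest day 3 and the lowest day 6 sum lay closest as a ratio for Pdgfra, at 1.13 and 2.55 CPM, and closest as a difference for Tgfb2, at 0.165 and 1.11 CPM. Asb4, which was not among the 8, had 0.843 and 14.5 CPM.

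Fam181b, the TEAD-binding protein, had 0.225, 0.0663, 0, 0 and 0 CPM at day 3 in 3B126, 3B77, 3A2, 3A38 and WT. At day 6 it had 286, 184, 64.9, 13.5 and 63.5 CPM in the same order. At day 8 it had 30.9, 13.1, 12 and 71.3 CPM in 3B126, 3B77, 3A38 and WT. Both 3BKO clones were the highest at day 6 and lay above every 3AKO and WT sum. In 3A2 the level rested on 1 cell with 97.8% of the reads. Without that cell the plain CPM, scaled by total reads alone, was 1.21 in place of 53.3.

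Pdgfra, the growth factor receptor, had 0.337, 1.13, 0, 0 and 0 CPM at day 3 in 3B126, 3B77, 3A2, 3A38 and WT. Its day 6 levels were 8.75, 2.55, 6.95, 33.8 and 21.9 CPM in that order. Its day 8 levels were 45.3, 201, 62.4 and 62.1 CPM in 3B126, 3B77, 3A38 and WT. At day 6, 3A38 and WT lay above both 3BKO clones, the opposite of Fam181b. Every day 8 sum lay above every day 6 sum. The low 3B77 day 6 sum came almost wholly from 1 cell, which held 94.7% of its 76 reads.

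Among the secreted ligands, Tgfb2 had 0.0562, 0.0332, 0.0338, 0.165 and 0 CPM at day 3, and 5.58, 1.11, 7.23, 36.5 and 8.80 CPM at day 6, in 3B126, 3B77, 3A2, 3A38 and WT. Its day 8 sums were 5.93, 71.2, 74.1 and 27.9 CPM in 3B126, 3B77, 3A38 and WT. Clone 3A38 stood apart at day 6, and 3B126 was the lowest at day 8. The 3A38 day 8 sum held 1 cell with 81% of the reads, at 6979 CPM within that cell, and its plain CPM was 11.5 without the cell and 60.3 with it.

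Fgf10 was at 0 in all day 3 sums but that of 3A2, which had 0.744 CPM. At day 6 Fgf10 had 2.68, 3.12, 29, 16.4 and 31.7 CPM in 3B126, 3B77, 3A2, 3A38 and WT, and at day 8 it had 22.5, 56.8, 106 and 36.7 CPM in 3B126, 3B77, 3A38 and WT. Both 3BKO clones lay below all other day 6 sums. The highest sum, 3A38 at day 8, again rested on 1 cell with 95.3% of the reads, and its plain CPM was 4.16 without it and 86.6 with it.

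Rspo3 had at most 0.541 CPM at day 3. At day 6 it had 22.7, 7.48, 54.8, 20.6 and 35.3 CPM in 3B126, 3B77, 3A2, 3A38 and WT, and at day 8 it had 48.1, 17.2, 4.42 and 18.5 CPM in 3B126, 3B77, 3A38 and WT. The days overlapped, and day 8 was the higher in 2 of 4 clones. Rspo3 was the only one of the 8 genes with its highest day 6 sum in 3A2.

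Sema3a, the guidance cue, had at most 0.562 CPM at day 3. Its day 6 sums were 30.3, 20.5, 5.17, 14.8 and 32.6 CPM in 3B126, 3B77, 3A2, 3A38 and WT, and its day 8 sums were 22.1, 49.9, 110 and 14.7 CPM in 3B126, 3B77, 3A38 and WT. Day 8 spread around day 6 on both sides. In 3A38 at day 8, 63.3% of the reads were in 1 cell, as were 79.5% in 3A2 and 65.2% in WT at day 6.

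Cdh11, the mesenchymal cadherin, had 1.91, 0.298, 0.304, 0.9601 and 1.35 CPM at day 3, and 22.7, 21.6, 15.6, 45.1 and 93.7 CPM at day 6, in 3B126, 3B77, 3A2, 3A38 and WT. At day 8 it had 42.5, 209, 163 and 77.1 CPM in 3B126, 3B77, 3A38 and WT. WT had the highest day 6 sum. WT was also the only clone without a higher sum at day 8, and even this turned round in plain CPM, where WT had 98.0 at day 8 against 93.4 at day 6.

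Zfhx4, the homeobox protein, was read in every day 3 sum, with 0.399 to 2.80 CPM. It had 13.6, 26.5, 17, 33.3 and 28.3 CPM at day 6 in 3B126, 3B77, 3A2, 3A38 and WT, and 30.03, 58.6, 177 and 53.7 CPM at day 8 in 3B126, 3B77, 3A38 and WT. Its day 6 sums were the most even of the 8 genes relative to their mean, at 23.7 ± 8.19 CPM (SD, n = 5). All 4 clones were higher at day 8, also without the cell that held most reads in each sum.

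**Figure D1:**
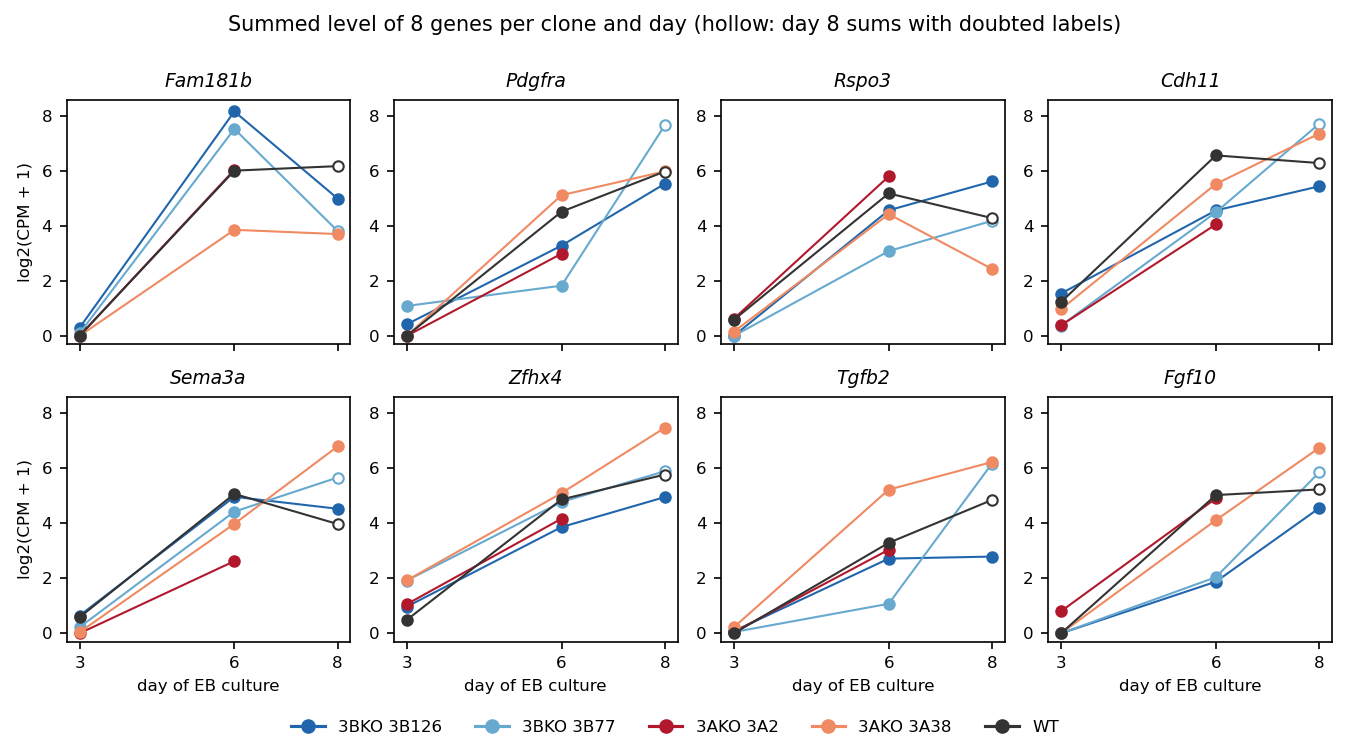
Level of each gene as log2(CPM + 1) over the day of EB culture, 1 line per clone and 1 point per sum of clone and day, with TMM-scaled CPM; hollow points are the day 8 sums of 3B77 and WT, which hold the doubted libraries. Every gene lies higher at day 6 than at day 3 in every clone, as the choice required, and Fam181b alone has its 2 highest sums in the 3BKO clones at day 6.

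Most reads of these genes came from a minority of cells. A cell was said to carry a gene at 3 or more reads. At days 3, 6 and 8, Fam181b was carried by 1, 79 and 31 cells (0.274%, 22.7% and 12.3%), Pdgfra by 2, 47 and 62 cells (0.548%, 13.5% and 24.6%), and Cdh11 by 15, 93 and 86 cells (4.11%, 26.7% and 34.1%). Zfhx4 was carried by 16, 89 and 87 cells (4.38%, 25.6% and 34.5%), Sema3a by 3, 54 and 38 (0.822%, 15.5% and 15.1%), Tgfb2 by 1, 46 and 51 (0.274%, 13.2% and 20.2%), Fgf10 by 2, 49 and 40 (0.548%, 14.1% and 15.9%), and Rspo3 by 4, 64 and 32 (1.10%, 18.4% and 12.7%). No gene was carried by more than 34.5% of the cells of a day. After thinning each cell to 50000 reads, with 1 read needed, the shares were 22.7%, 11.8%, 27%, 22.7%, 14.4%, 12.1%, 13.5% and 19% at day 6 for Fam181b, Pdgfra, Cdh11, Zfhx4, Sema3a, Tgfb2, Fgf10 and Rspo3. Without the 2 doubted libraries the day 8 counts, of 144 cells, were 18 for Fam181b (12.5%), 32 for Pdgfra (22.2%), 49 for Cdh11, 55 for Zfhx4 (38.2%), 22 for Sema3a (15.3%), 26 for Tgfb2 (18.1%), 16 for Fgf10 (11.1%) and 14 for Rspo3 (9.72%). Thinning moved no day 6 share by more than 3 percentage points. Among the carrying cells the median level was 200.1 CPM at day 8 against 90.5 CPM at day 6 for Pdgfra, 113 against 59.8 for Zfhx4, 132 against 89.7 for Cdh11 and 139 against 130 for Fam181b. Smart-seq2 reads are PCR copies without molecular identifiers, so intervals here cover counting error only.

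At least 1 of the 8 genes was carried by 42 of 365 cells at day 3 (11.5%), 216 of 348 at day 6 (62.1%) and 173 of 252 at day 8 (68.7%, or 70.8% of 144 cells without the 2 doubted libraries). Cells with 4 or more of them numbered 0, 44 and 44. Clone 3A2 stood apart at day 6, with 20 of 80 cells carrying any of the genes (25.0%, exact 95% interval 16 to 35.9). The other day 6 shares were 67.2% in 3B126, 69% in 3B77, 80.6% in 3A38 and 74.6% in WT. In 3A2 at day 6 the epiblast list was still carried by 59 of 80 cells, against 24 of 58 in 3B126, 18 of 71 in 3B77, 1 of 72 in 3A38 and 14 of 67 in WT, and the part of this in the gene counts was not tested.

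The share of carrying cells differed widely between clones for Fam181b and Pdgfra. Fam181b was carried at day 6 by 26 of 58 cells in 3B126 (44.8%), 31 of 71 in 3B77 (43.7%), 2 of 80 in 3A2 (2.50%), 9 of 72 in 3A38 (12.5%) and 11 of 67 in WT (16.4%). Pdgfra was carried at day 6 by 5 of 58 cells in 3B126 (8.62%), 1 of 71 in 3B77 (1.41%), 3 of 80 in 3A2 (3.75%), 18 of 72 in 3A38 (25.0%) and 20 of 67 in WT (29.9%). Within batch 2, 3B126 had the larger share for Fam181b and WT the larger share for Pdgfra. Tgfb2 was carried most often in 3A38 at day 6 (24 of 72 cells, 33.3%) and Zfhx4 likewise (35 of 72, 48.6%). Outside 3A2 the shares were closer together for Cdh11, with 25.9% of cells in 3B126, 33.8% in 3B77, 31.9% in 3A38 and 34.3% in WT, and for Sema3a, with 17.2%, 21.1%, 16.7% and 17.9% in the same order.

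**Figure D2:**
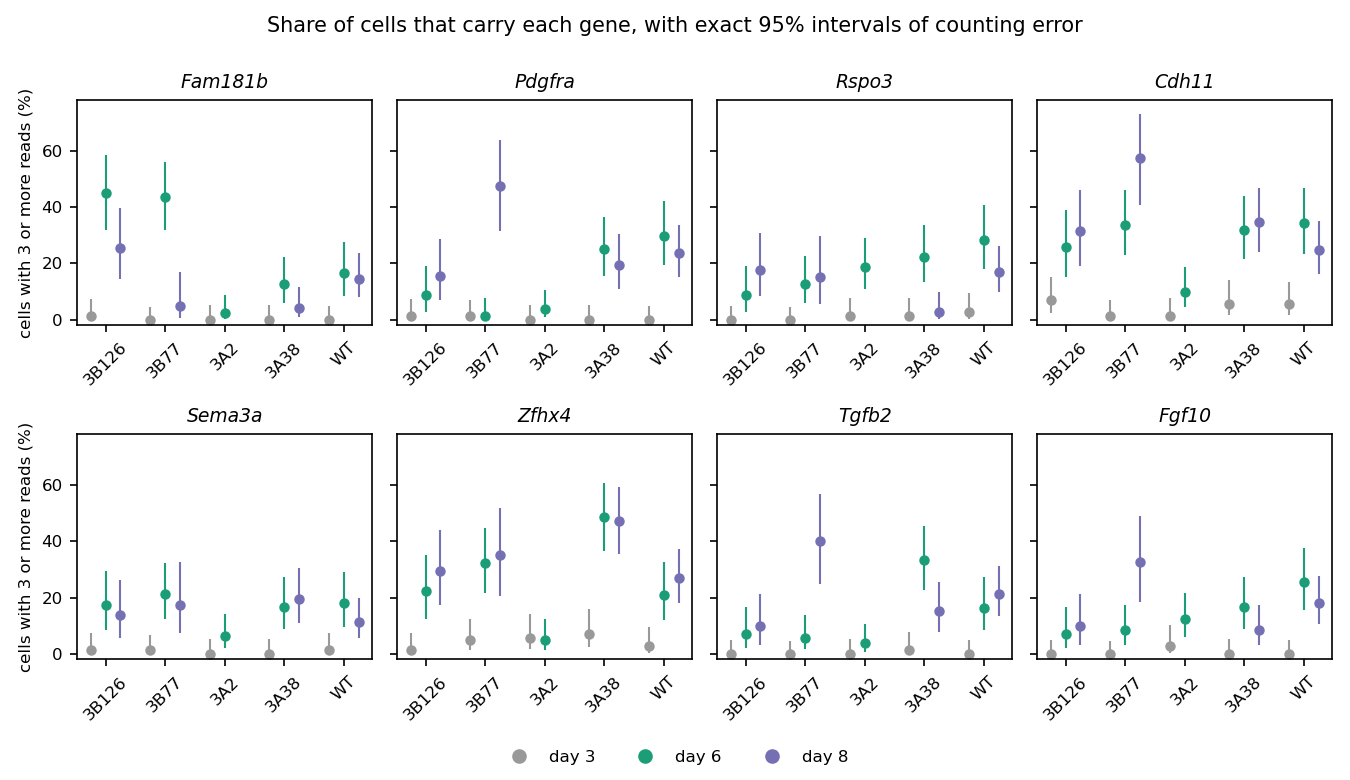
Percent of cells with 3 or more reads of each gene, by clone along the x axis and by day in colour, with exact 95% binomial intervals as bars; 3A2 has no day 8 point. Fam181b is carried by 44.8% and 43.7% of day 6 cells in the 3BKO clones 3B126 and 3B77, and Pdgfra by 8.62% and 1.41% of them.

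To ask which cells held the reads, each cell was scored for 12 lists of lineage markers, and a list was carried when 3 of its 6 markers had 3 or more reads (3 of 5 for macrophages). Shares among cells carrying a gene are set beside those among all other cells of the same day. These are counts of cells from 4 or 5 sums, and no test was made over cells. Clones are pooled unless a clone is named, so differences in make-up between clones enter these shares. Between 15.0% and 34.4% of the cells carrying one of the genes had none of the 12 lists at day 8, and between 32.6% and 46.8% at day 6.

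Fam181b lay on the neural side. At day 8, 16 of 31 Fam181b cells carried the neural progenitor list (51.6%, exact 95% interval 33.1 to 69.8; Sox1, Pax6, Pax3, Pou3f3, Fabp7 and Zic1), against 19% of other cells, and without the 2 doubted libraries it was 10 of 18 (55.6%) against 26.2%. At day 6 it was 19 of 79 (24.1%) against 8.55%. The mesenchyme list (Col1a1, Col1a2, Col3a1, Postn, Lum and Twist1) was carried by 2 of the 31 Fam181b cells at day 8, and by 50 of all 252 cells (19.8%). Of the 31, 13 were in 3B126 and 11 on plate C344, where this list was carried by 0 of 51 and 1 of 68 cells. At day 6 it was carried by 0 of the 79, which allows a share of up to 4.56% (exact upper 95% bound). Over all day 6 cells it was carried by 13 of 348 (3.74%), and by no cell of 3B126, 3B77 or 3A2. The mesenchyme counts of both days therefore do not set Fam181b cells apart. Single markers, with clones pooled, went the same way. At day 6 Tubb3, a neuronal tubulin, was present in 87.3% of Fam181b cells against 47.6% of others, and Pax3 and Sox1, transcription factors of the neural plate, each in 44.3%, against 11.5% and 19%. Hand1, a mesodermal transcription factor, was present in 0 of the 79, against 11.5% of others. Of the 79 cells, 57 were 3BKO. The neuron list was carried by 39.5% of all 3BKO day 6 cells and 11.8% of 3AKO ones. The later mesoderm list was carried by no 3BKO cell at day 6. The part of clone make-up in these marker shares was not tested.

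The neural link of Fam181b was not equal between clones. Among its day 6 cells the neural progenitor list was carried by 6 of 26 in 3B126, 3 of 31 in 3B77, 0 of 2 in 3A2, 7 of 9 in 3A38 and 3 of 11 in WT. In 3B77 this was 9.68%, against 12.5% of the other cells of that plate. At day 8 it was 9 of 13 in 3B126, 0 of 2 in 3B77, 1 of 3 in 3A38 and 6 of 13 in WT. The 3BKO clones thus had the most Fam181b cells at day 6, and most of those cells did not reach 3 markers of this list. With 2 markers needed in place of 3, 55.7% of all day 6 Fam181b cells carried it.

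Pdgfra lay on the mesodermal side. At day 8, 35 of 62 Pdgfra cells carried the mesenchyme list (56.5%, exact 95% interval 43.3 to 69), against 7.89% of other cells, and without the 2 doubted libraries 19 of 32 (59.4%) against 9.82%. At day 6 it was 7 of 47 (14.9%) against 1.99%, and the list of later mesoderm transcription factors (Hand1, Hand2, Foxf1, Foxc1, Foxc2 and Prrx1) was also carried by 7, against 0.997%. Hand1 was present in 40.4% of day 6 Pdgfra cells against 3.99% of others, and so was Kdr, a receptor of early vascular and mesodermal cells, in 40.4% against 12.3%. At day 8 Hand2, a transcription factor of lateral mesoderm and heart, was present in 67.7% of Pdgfra cells against 8.42%, and Col3a1, a fibrillar collagen, in 64.5% against 10.5%. The neural progenitor list was carried by 2 of the 62 Pdgfra cells at day 8 and by 3 of the 47 at day 6.

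The library decided much of this. Day 8 Pdgfra cells with the mesenchyme list were 0 of 8 in 3B126, 15 of 19 in 3B77, 11 of 14 in 3A38 and 9 of 21 in WT, and in WT they were 8 of 10 on plate C343 and 1 of 11 on plate C344. No cell of 3B126 carried the mesenchyme list at day 8 or day 6, and none of 3B77 did at day 6. In 3B126 Pdgfra was therefore carried without that list at day 8, in cells of which 3 of 8 had no list at all.

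Tgfb2 cells carried the mesenchyme list in 28 of 51 at day 8 (54.9%, against 10.9% of others) and in 11 of 46 at day 6 (23.9%, against 0.662%). By clone it was 0 of 5 in 3B126, 14 of 16 in 3B77, 8 of 11 in 3A38 and 6 of 19 in WT at day 8. At day 6 it was 7 of 24 in 3A38 and 4 of 11 in WT, and 0 of 11 cells in the other clones, where no cell carried the list. Hand1 was present in 23 of its 46 day 6 cells against 2.65%. Fgf10 had another pattern. At day 8 the mesenchyme list was carried by 17 of 40 Fgf10 cells (42.5%) against 15.6%, but at day 6 by 1 of 49. At day 6 its cells carried Kdr in 51% against 10.4% and Mixl1, a transcription factor of the primitive streak, in 22.4% against 1.00%. The neural progenitor list was carried by 0 of 40 Fgf10 cells at day 8 (exact upper 95% bound 8.81%), against 27.4% of others. Of these 40, 13 were in 3B77 and 5 on plate C343, where no cell of any kind carried that list. The part of library make-up in this difference was not tested.

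Early mesoderm markers were more frequent in Rspo3 cells than in others, though most Rspo3 cells lacked the primitive streak list. At day 6 the primitive streak list (T, Mixl1, Eomes, Mesp1, Tbx6 and Msgn1) was carried by 8 of 64 Rspo3 cells (12.5%) and by 1 of the 284 others (0.352%), and the endothelium list by 9 (14.1%) against 4.23%. Kdr was present in 45.3% of day 6 Rspo3 cells against 9.51%, T, the Brachyury gene, in 20.3% against 4.93%, and Mesp1, a marker of the first cardiac and paraxial mesoderm, in 15.6% against 1.06%. At day 8 the streak list was carried by 4 of 32 (12.5%) against 1.36%, and mesenchyme by 21.9% against 19.5%, a difference within counting error (exact 95% interval 9.28 to 39.97). Rspo3 cells also carried the neural progenitor list. At day 6 these were 4 cells with Fam181b and no Pdgfra, 2 with both and 3 with neither. At day 8 they were 2, 1 and 1 in that order.

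Cdh11 and Zfhx4 were carried by cells of both lists. Cdh11 cells carried the mesenchyme list in 42 of 86 at day 8 (48.8%, against 4.82%) and in 10 of 93 at day 6 (10.8%, against 1.18%), and the neural progenitor list in 17 of 86 at day 8 (19.8%, against 24.7%) and in 15 of 93 at day 6 (16.1%, against 10.6%). Zfhx4 cells carried the neural progenitor list in 26 of 87 at day 8 (29.9%, against 19.4%) and in 28 of 89 at day 6 (31.5%, against 5.41%), and the mesenchyme list also in 26 of 87 at day 8 (against 14.5%). The neural share of Zfhx4 at day 6 was highest in 3A38, with 19 of 35 cells (54.3%, against 5.41% of the other cells of that plate), and was 2 of 13 in 3B126, 3 of 23 in 3B77 and 4 of 14 in WT. Pou3f3, a neural transcription factor, was present at day 6 in 13 of the 89 Zfhx4 cells and in none of the other 259.

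Sema3a cells carried the mesenchyme list in 15 of 38 at day 8 (39.5%, against 16.4%) and in 3 of 54 at day 6 (5.56%, against 3.40%). They carried the neural progenitor list in 6 of 38 at day 8 (15.8%, against 24.3%) and in 9 of 54 at day 6 (16.7%, against 11.2%). At day 6 Tfap2b, a transcription factor of neural crest and of other ectoderm, was present in 12 of 54 Sema3a cells (22.2%) and in 0.340% of others, and Pax3 in 40.7% against 15.0%. At day 8 Twist1, a transcription factor of mesenchyme, was present in 47.4% of Sema3a cells against 7.01%.

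Without the 2 doubted libraries the day 8 shares with the mesenchyme list were 14 of 26 Tgfb2 cells (53.8%), 8 of 16 Fgf10 cells, 23 of 49 Cdh11 cells (46.9%, against 7.37% of others), 9 of 22 Sema3a cells (40.9%) and 16 of 55 Zfhx4 cells (29.1%). The neural progenitor share of Zfhx4 cells at day 8 was then no longer above that of other cells, with 29.1% against 30.3%. The 2 WT plates of day 8 differed in the same genes. Plate C343 and plate C344 had 4.91 and 131 plain CPM of Fam181b, 203 and 21.1 of Pdgfra, 270.2 and 17.7 of Cdh11, and 87.6 and 11 of Tgfb2, and the mesenchyme list was carried by 12 of 21 cells on C343 and 1 of 68 on C344.

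**Figure D3:**
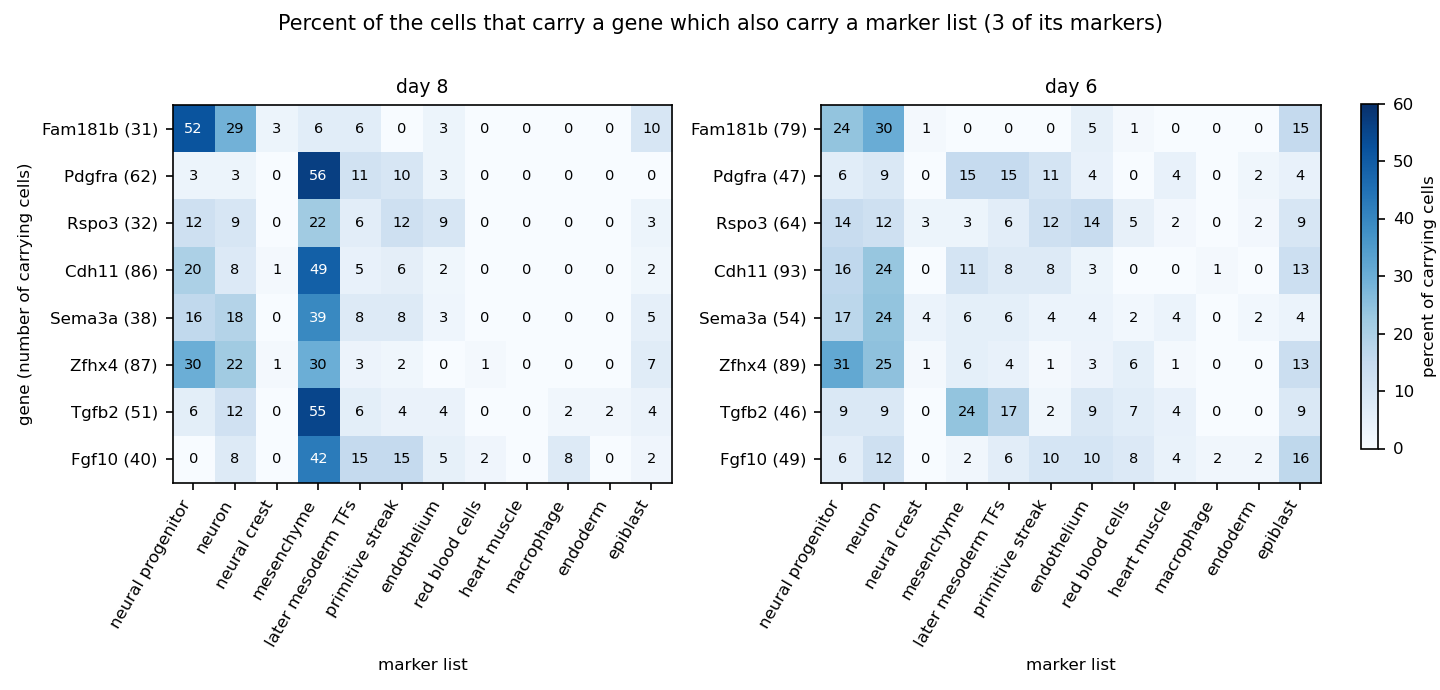
Percent of the cells carrying a gene (rows, with their number) that also carry a marker list (columns), at day 8 in the left panel and day 6 in the right panel. Fam181b has its highest share for neural progenitors at day 8 (51.6%), while Pdgfra and Tgfb2 have theirs for mesenchyme (56.5% and 54.9%), and no cell at either day carried both lists. At day 8 only 3A38 (18 of 72 cells each) and plate C344 (15 and 1 of 68) held neural progenitor and mesenchyme cells. At day 6 only 3A38 and WT held both.

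Seen from the lists, nearly all cells with the mesenchyme, primitive streak or later mesoderm lists carried at least 1 of the 8 genes. Over all cells the share was 68.7% at day 8 and 62.1% at day 6. At day 8, 49 of 50 mesenchyme-list cells carried at least 1 of the genes (98.0%), led by Cdh11 in 42 and Pdgfra in 35, and at day 6 all 13 did. All 7 primitive streak cells at day 8 and all 9 at day 6 carried at least 1, as did all 8 later mesoderm cells at day 8 and all 10 at day 6. Neural progenitor cells did so in 42 of 58 at day 8 (72.4%), near the share over all cells, and in 39 of 42 at day 6 (92.9%). Cells with the endothelium list did so in 8 of 10 at day 8 and in 19 of 21 at day 6 (90.5%). Cells with the epiblast list carried one of the genes in 9 of 39 at day 8 (23.1%) and in 28 of 116 at day 6 (24.1%). Cells with the red blood cell list did so in 2 of 11 at day 8 (18.2%) and in 8 of 17 at day 6 (47.1%). The neuron list separated the cells poorly, since 81 of 365 day 3 cells carried it too.

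Few cells carried both Fam181b and Pdgfra, but at day 8 the share among Fam181b cells was not far below that among other cells. At day 8, 6 of 252 cells carried both, which is 19.4% of the 31 Fam181b cells, against 25.3% of the other cells carrying Pdgfra, and 9.68% of the 62 Pdgfra cells. Without the 2 doubted libraries it was 3 of 144 cells. At day 6, 4 of 348 cells carried both, which is 5.06% of the 79 Fam181b cells, against 16% of the other cells carrying Pdgfra, and 8.51% of the 47 Pdgfra cells. Clones differed in how often they carried each gene. At day 6 Pdgfra was carried by 1 cell of 3B77 and 3 of 3A2, so nothing is read from their counts of 0. Within single day 6 libraries both were carried by 1 of 26 Fam181b cells in 3B126 (3.85%, against 12.5% of other cells carrying Pdgfra), 0 of 31 in 3B77, 0 of 2 in 3A2, 1 of 9 in 3A38 (11.1%, against 27%) and 2 of 11 in WT (18.2%, against 32.1%).

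Pdgfra shared more cells with Cdh11 and with Fgf10 than with Fam181b. Pdgfra and Cdh11 were together in 42 cells at day 8, 67.7% of the Pdgfra and 48.8% of the Cdh11 cells, and in 30 at day 6, 63.8% and 32.3% of them. Of cells without Pdgfra, 23.2% carried Cdh11 at day 8 and 20.9% at day 6. Pdgfra and Fgf10 shared 28 cells at day 8 (45.2% of the Pdgfra cells and 28 of 40 Fgf10 cells) and 19 at day 6 (40.4% and 38.8%). Of cells without Pdgfra, 6.32% carried Fgf10 at day 8 and 9.97% at day 6. Rspo3 and Fgf10, both secreted ligands, shared 15 cells at day 8 (46.9% and 37.5%) and 23 at day 6 (35.9% and 46.9%). Fam181b and Zfhx4 shared 11 cells at day 8, 35.5% of the Fam181b cells against 34.4% of other cells carrying Zfhx4, and without the 2 doubted libraries 27.8% against 39.7%. At day 6 they shared 39 cells, 49.4% against 18.6%. Fam181b and Cdh11 shared 14 cells at day 8 (45.2%, against 32.6% of other cells carrying Cdh11) and 33 at day 6 (41.8%, against 22.3%). Within day 6 libraries the latter was 38.5% against 15.6% in 3B126 and 45.2% against 25% in 3B77. It was 33.3% against 31.7% in 3A38 and 36.4% against 33.9% in WT, so close there, and 2 of 2 cells against 7.69% in 3A2. Fam181b and Sema3a shared 7 cells at day 8 (22.6%, against 14.03% of other cells carrying Sema3a) and 25 at day 6 (31.6%, against 10.8%). Fam181b and Tgfb2 shared 8 cells at day 8 (25.8%, against 19.5% of other cells carrying Tgfb2), or 22.2% against 17.5% without the doubted libraries, but at day 6 it was 2.53% against 16.4%. Fam181b with Tgfb2 was the least frequent pair at day 6, with 2 cells, and Fam181b with Fgf10 at day 8, with 2 cells.

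**Figure D4:**
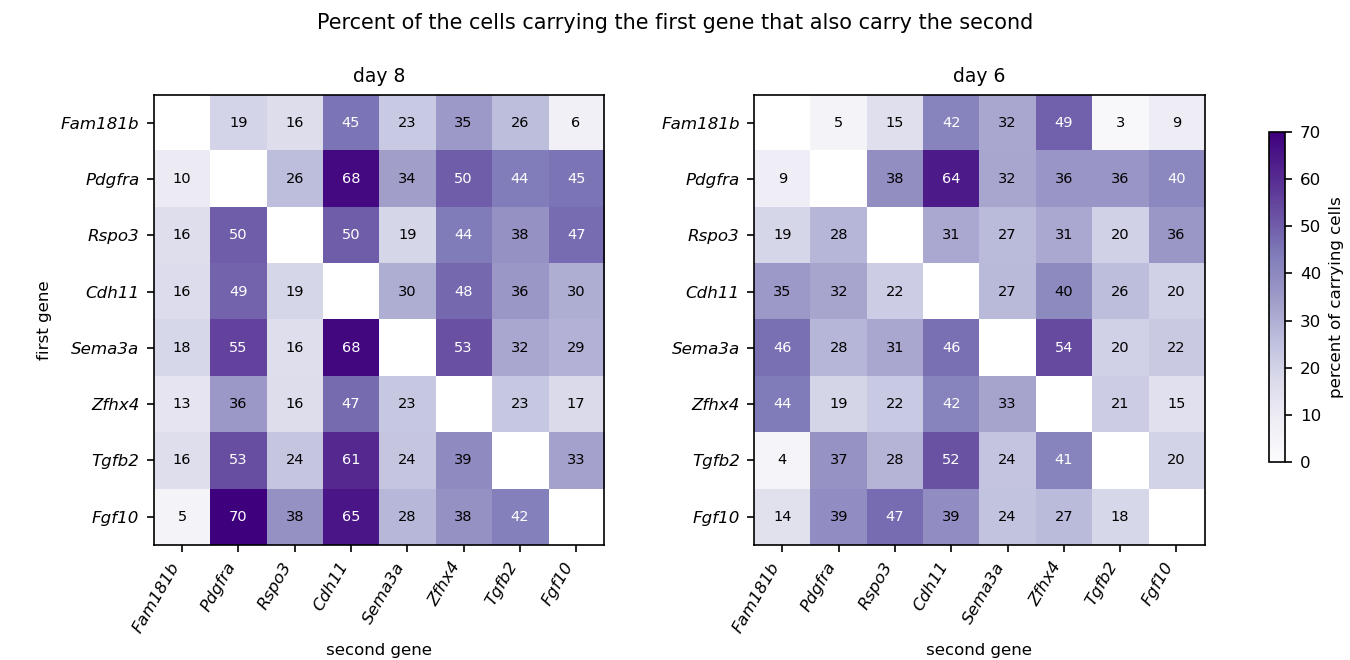
Percent of the cells carrying the gene of the row that also carry the gene of the column, at day 8 in the left panel and day 6 in the right panel. Pdgfra cells carried Cdh11 in 67.7% at day 8 and 63.8% at day 6, whereas Fam181b cells carried Pdgfra in 19.4% at day 8 and 5.06% at day 6.

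Cells carrying the other 6 genes were sorted by whether they also carried Fam181b without Pdgfra, Pdgfra without Fam181b, both or neither. Over all cells these made up 9.92%, 22.2%, 2.38% and 65.5% at day 8, and 21.6%, 12.4%, 1.15% and 64.9% at day 6. Of the 86 Cdh11 cells at day 8, 12 had Fam181b without Pdgfra, 40 had Pdgfra without Fam181b, 2 had both and 32 neither. The 12 held 8 neural progenitor and 0 mesenchyme cells, and the 40 held 0 neural progenitor and 26 mesenchyme cells. Of the 14 day 8 cells with Fam181b and Cdh11, 8 were in 3B126 and 4 on plate C344. There the mesenchyme list was carried by 0 of 51 and 1 of 68 cells. Of the 42 with Pdgfra and Cdh11, 18 were in 3B77 and 5 on plate C343, where no cell carried the neural progenitor list. The part of library make-up in this split was not tested. At day 6 the 93 Cdh11 cells split into 31, 28, 2 and 32 in that order. Zfhx4 cells at day 8 split into 9, 29, 2 and 47 (10.3%, 33.3%, 2.30% and 54.02%, near the shares over all cells), and at day 6 into 36, 14, 3 and 36. Sema3a cells split into 5, 19, 2 and 12 at day 8 and into 24, 14, 1 and 15 at day 6. Fgf10 had no cell with Fam181b alone at day 8 and 26 with Pdgfra alone, against 5 and 17 at day 6. Tgfb2 had 4 with Fam181b alone and 23 with Pdgfra alone at day 8, against 2 and 17 at day 6, when 27 of its 46 cells had neither. Rspo3 had 4 with Fam181b alone and 15 with Pdgfra alone at day 8, against 10 and 16 at day 6, when 36 of its 64 cells had neither.

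**Figure D5:**
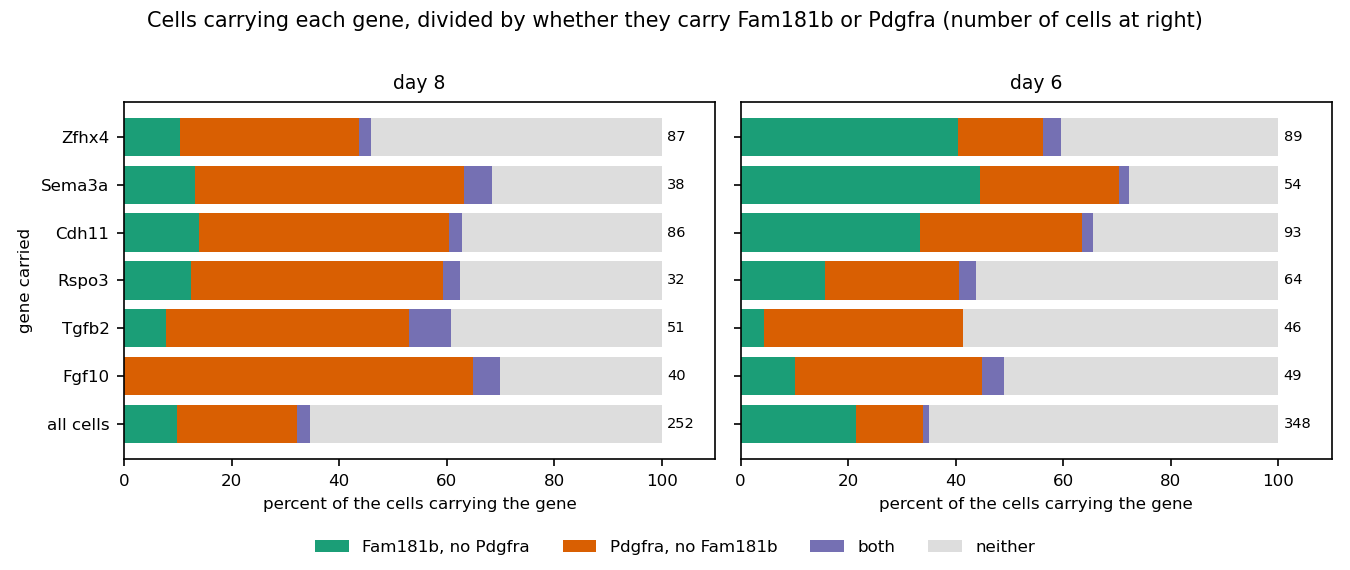
Cells carrying each gene, divided into those that also carry Fam181b, Pdgfra, both or neither, as a percent of the number of cells at the right of each bar, with day 8 in the left panel and day 6 in the right panel. For Cdh11 the part with Fam181b and no Pdgfra is 14% at day 8 and 33.3% at day 6, and the part with Pdgfra and no Fam181b is 46.5% at day 8 and 30.1% at day 6.

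Day 8 was then compared with day 6 over clones by edgeR's quasi-likelihood test, averaged over 3BKO, 3AKO and WT. The 3AKO mean held 3A2 and 3A38 at days 3 and 6, but 3A38 alone at day 8. Differences between these 2 clones therefore enter the fitted values of day 8 against either earlier day. Counts of clones out of 4 leave 3A2 out. The day 6 sums had been used to select the genes, so that this test is not independent of the choice. None of the 24083 genes passed an adjusted p of 0.05 (0%), and none of the 8 did. At an unadjusted p under 0.05 there were 1347 genes in all, while DESeq2 called 338, among them Pdgfra (adjusted p = 0.0413 by DESeq2). The median log2 fold change over all genes was -0.14. Pdgfra had the largest fitted difference, 2.52 ± 0.75 on the log2 scale (SE), with an adjusted p of 0.6996 by edgeR, and was higher at day 8 in 4 of 4 clones. Tgfb2 had 2.32 ± 0.86 (adjusted p = 0.776 by edgeR), Fgf10 2.07 ± 0.85 (0.832), Zfhx4 1.63 ± 0.60 (0.774) and Cdh11 1.55 ± 0.68 (0.874). Tgfb2, Fgf10 and Zfhx4 were also higher in 4 of 4 clones and Cdh11 in 3. Fam181b was the only one of the 8 with an unadjusted p under 0.05 for a lower level, at -1.65 ± 0.64 (p = 0.0204 by edgeR, adjusted p = 0.799), with a lower sum in 3 of 4 clones. Sema3a (0.94 ± 0.64) and Rspo3 (-0.97 ± 0.74) were each higher at day 8 in 2 clones and lower in 2, and Sema3a was higher in 3 in plain CPM.

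Single cells carried part of these differences. With the cell that held most reads of a gene left out of each sum, Pdgfra, Tgfb2 and Fgf10 were each higher at day 8 in 3 of 4 clones in place of 4, and Zfhx4 remained higher in 4. Without the 2 doubted libraries the difference for Fam181b was -2.76 (adjusted p = 0.163 by edgeR) and that for Pdgfra 2.60 (0.219), with a median of -0.65 over all genes in place of -0.14.

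The comparison of genotypes at day 6 used sums that the choice had also used, though it did not use the genotype. Of the 24083 genes, none (0%) passed in 3BKO against WT, in 3AKO against WT (0%) or in 3BKO against 3AKO (0%), and none of the 8 did. Genes at an unadjusted p under 0.05 numbered 448, 341 and 730 in that order, and DESeq2 called 63, 46 and 132, none of them among the 8.  In 3BKO against 3AKO, Fam181b had 2.58 ± 0.90 on the log2 scale (p = 0.0121 by edgeR, adjusted p = 1), with both 3BKO sums above both 3AKO sums. Fgf10 had -2.97 ± 1.26 (p = 0.0341 by edgeR, adjusted p = 1) in the same contrast and -3.45 ± 1.40 (p = 0.0279 by edgeR, adjusted p = 1) in 3BKO against WT, with both 3BKO sums below all the others. Within batch 2 the sums of 3B126 and WT were 286 against 63.5 CPM for Fam181b, and 2.68 against 31.7 CPM for Fgf10. Tgfb2 had -2.71 ± 1.25 (p = 0.0456 by edgeR, adjusted p = 1) in 3BKO against 3AKO. In 3BKO against WT, Cdh11 had -2.08 ± 1.12 and Pdgfra -1.96 ± 1.19, while Fam181b had 1.89 ± 1.15. WT is 1 culture, and its variation was taken to be like that of the knockout clones.

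At day 8, which the choice did not use, 3BKO against WT again gave no call among the 24083 genes (0%), with 381 genes at an unadjusted p under 0.05 and 18 called by DESeq2. All 8 adjusted p-values were 1 by edgeR. The largest fitted difference was -1.69 ± 1.01 for Fam181b. This contrast rested on the 2 libraries in doubt. Without them Fam181b turned to 2.64, Pdgfra to -2.17 in place of 0.99, Cdh11 to -2.68 in place of 0.70, Tgfb2 to -3.90 in place of 0.47 and Fgf10 to -2.15 in place of 0.11, with edgeR adjusted p-values of 0.453 to 0.772. Those values compare 1 clone, 3B126, with 1 plate of 21 WT cells, both of batch 2.

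Ligands, receptors and relatives of the 8 genes were taken from lists of 57 genes, of which 56 were tested. In day 8 against day 6 and in day 6 against day 3 none passed by edgeR (8 and 14 at an unadjusted p under 0.05), nor did any in the 4 genotype contrasts. In day 8 against day 3, where 198 of the 24083 genes passed (0.822%) and the median over all genes was -0.01 on the log2 scale, 38 of the 56 had a fitted value above 0. The list medians were 2.92 for Pdgf ligands and receptors, 2.24 for Tgf-beta ligands and receptors, 1.46 for class 3 semaphorins and receptors, 1.40 for Fam181 and Tead, 1.35 for R-spondins and their receptors, 1.01 for cadherins and catenins, 0.03 for the Zfhx family and -0.59 for the Fgf7 subfamily. Only 1 gene was called higher and 1 lower, both of the semaphorin list.

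Plxna2, a plexin that transduces class 3 semaphorin signals, had 16.2, 65.5, 15.9 and 15.3 CPM at day 8 in 3B126, 3B77, 3A38 and WT, against 0.337, 0, 0.406, 0.165 and 5.54 CPM at day 3 in 3B126, 3B77, 3A2, 3A38 and WT (5.08 ± 1.09 on the log2 scale, adjusted p = 0.0435 by edgeR). Sema3e, a relative of Sema3a, had 0, 0, 0 and 0.0455 CPM at day 8, against 1.85, 5.77, 34.8, 22.7 and 2.39 CPM at day 3, in the same orders (-9.26 ± 1.91, adjusted p = 0.0392 by edgeR). The groups did not overlap for either gene, and with sums at 0 the fitted values are no bound. Nrp1 and Nrp2, the neuropilins that serve as receptors of class 3 semaphorins and were named here after their values were seen, averaged 0.0701, 14.1 and 69.3 CPM and 1.24, 22.1 and 35.6 CPM at days 3, 6 and 8 (SD at day 8 101.4 and 42.7, n = 4). Neither passed in day 8 against day 3 (adjusted p = 0.0974 for Nrp1 and 0.114 for Nrp2 by edgeR).

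The other 7 lists had no gene past the threshold, and for each the 2 genes with the highest mean level at day 6 are given as mean ± SD CPM at days 3, 6 and 8 (n = 5, 5 and 4). Receptors were already read at day 3. Tgfbr1, a receptor subunit for transforming growth factor beta, had 74.5 ± 39.8, 193 ± 69.7 and 204 ± 72.7 CPM, and Tgfbr3, its co-receptor betaglycan, 4.05 ± 4.23, 7.48 ± 6.26 and 49.3 ± 69.2 CPM. Lgr4, a receptor of R-spondins, had 527 ± 276, 199 ± 146 and 198 ± 204 CPM, and Znrf3, the ubiquitin ligase that R-spondins inhibit, 56 ± 40.4, 62.1 ± 30.9 and 78.6 ± 73.1 CPM. Fgfr2, whose epithelial splice form binds Fgf10, had 23.7 ± 16, 29.8 ± 12.3 and 99.9 ± 124 CPM, and Fgfr1 40.5 ± 21.7, 40.1 ± 13.6 and 44.3 ± 27.2 CPM. Pdgfa, a ligand of Pdgfra, had 4.49 ± 2.48, 5.39 ± 3.53 and 5.00 ± 0.946 CPM, and Pdgfrb, the related receptor, 3.82 ± 7.40, 3.55 ± 3.70 and 10.4 ± 7.45 CPM. Cdh1, the epithelial cadherin, had 157 ± 42.2, 111 ± 123 and 18.3 ± 20.6 CPM, and Ctnnb1, which encodes beta-catenin, 444 ± 181, 786 ± 534 and 562 ± 229 CPM. The spread between clones was large against these means. Of the TEAD factors Tead1 had 24.3 ± 8.54, 52.7 ± 26.9 and 72.3 ± 43.8 CPM and Tead2 13.8 ± 3.78, 17 ± 7.96 and 15.4 ± 13.8 CPM. Of the relatives of Zfhx4, Zfhx3 had 27 ± 18.7, 11.8 ± 7.90 and 61.8 ± 69.4 CPM and Zfhx2 7.97 ± 7.47, 2.46 ± 0.926 and 3.45 ± 2.95 CPM.

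Finally, the genes most like each of the 8 were looked for over the 600 cells of days 6 and 8. Likeness was Pearson's r of log2(CPM + 1), with a pseudocount of 1 CPM, after centring on each plate, among 11277 genes carried by at least 30 of these cells. Cells of a plate share their library and counts are sparse, so r is a description. Pdgfra was closest to Hand2 (r = 0.52), Gata6 (0.50) and Asb4 (0.45), of which Gata6 encodes a transcription factor of mesoderm and endoderm. Tgfb2 was closest to Hand2 (0.41), Col1a2 (0.39) and Col3a1 (0.39), and Cdh11 to Col1a2 (0.46), Pmp22 (0.44) and Col1a1 (0.42). Fgf10 was closest to Asb4 (0.37), Gata6 (0.37) and Ctsc (0.36), Rspo3 to Aplnr (0.35), Pcdh7 (0.31) and Asb4 (0.31), and Sema3a to Twist1 (0.31), Dnm3os (0.27) and Asb4 (0.26). Fam181b was closest to Crabp2 (0.29), Ildr2 (0.28) and Lrp2 (0.28), and Zfhx4 to Crabp2 (0.32), Ptn (0.31) and Pfn2 (0.31). Asb4 thus stood among the 3 closest genes of 4 of the 8. Among the 8 themselves r was highest for Pdgfra with Cdh11 (0.36) and lowest for Fam181b with Pdgfra and with Tgfb2 (-0.06 each). Correlation with a cell's depth lay between -0.05 and 0.07.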

How the data were processed

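Single cells were sequenced by Smart-seq2 and, according to the submitters' processing notes and the study's methods, reads were checked with FastQC 0.11.2, trimmed with Trim Galore 0.5.0, aligned to mm10 with STAR 2.7.1a and counted per gene with featureCounts 1.6.1. The authors deposited raw read counts per gene and cell, kept for cells with at least 50000 reads and 2000 genes and at most 50% mitochondrial reads. The table held 965 cells and 36849 genes, and 35661 genes had a read.

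From the counts, reads were summed per clone and day (14 sums), scaled with TMM and tested with edgeR 4.0.16 (robust quasi-likelihood, 9 means of genotype and day, 5 residual degrees of freedom, Benjamini-Hochberg adjustment, R 4.3.3) on 24083 genes that passed filterByExpr. DESeq2 1.42.0, other size factors, no filter, a replicate block and left-out clones were alternatives. P-values measure the spread between these sums only. Cells were counted in Python 3.11.15 with exact binomial intervals. A cell carried a gene at 3 reads and a list at 3 markers. The edgeR fit, for day 8 against day 6, and the likeness measure were tested on simulated data, and the counting of cells was not. A clone is 1 cell line at every day, which pairs its sums, and deviations from the group means of the same clone correlated at -0.19 to 0.23.

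The 8 genes and all lists were chosen with earlier results of these data known. Named are the 8 genes, listed partners past the threshold or, in a list with none, the 2 with the highest day 6 mean, the 3 genes most like each, markers that a count turns on, and Asb4. 0 columns were matched to no sample.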

Additional observations from a re-analysis of the deposited data

Results flagged for a closer look

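Sums were compared within 27 groups of 4 or 5, and 3 groups held a sum far from the others. Chance marks about 1 in 20 groups, the day 3 and day 6 sums were also used to choose the genes, and nothing is read from the number marked. Pdgfra had 201 CPM in 3B77 at day 8, where the next of 4 sums had 62.4 CPM, and this is the library whose label is doubted. Tgfb2 had 36.5 CPM in 3A38 at day 6, where the next of 5 sums had 8.80 CPM. Fgf10 had 0.744 CPM in 3A2 at day 3 and 0 in the other 4 sums, a case that is marked whatever the size of the value.

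The change between day 6 and day 8 had opposite signs in different genotypes for 4 genes, as the mean change in CPM over clones, and the differences were not tested. Fam181b changed by -213 in 3BKO and by -1.47 in 3AKO, against 7.80 in WT. Rspo3 changed by 17.6 in 3BKO, against -16.2 in 3AKO and -16.8 in WT. Cdh11 changed by 104 in 3BKO and by 118 in 3AKO, against -16.6 in WT, where plain CPM gives the opposite sign. Sema3a changed by 95.5 in 3AKO, against -17.9 in WT. WT and 3AKO each rest on 1 clone in these changes. On plate C343 alone, without the doubted libraries, WT at day 8 against day 6 had 4.91 against 63.3 plain CPM of Fam181b and 270.2 against 93.4 of Cdh11, so that the opposite signs of these 2 genes were gone. Rspo3 had 12 against 35.2 and Sema3a 8 against 32.5, with the sign unchanged. For Sema3a, however, 1 cell held 65.2% of the WT day 6 reads. With the top cell of each WT sum left out, both plates included, Sema3a had 12.7 plain CPM at day 8 against 11.8 at day 6. The sign in WT thus rested on single cells.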

How the results depend on the processing

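Counts of called genes depended on the method. Pairs of counts give genes called higher and genes called lower. Day 8 against day 6 had 0 and 0 by edgeR, 206 and 132 by DESeq2 (with 1 of the 8 genes, Pdgfra), 150 and 50 with no filter and 1 and 0 with the replicate block, a paired fit over clones. With a clone left out it had 0 to 114 higher and 0 to 12 lower. Day 8 against day 3 had 161 and 37, 1599 and 1098 by DESeq2, 1030 and 525 with no filter, and 375 and 421 without the doubted libraries. With a clone left out it had 98 to 762 higher and 10 to 289 lower. Day 6 against day 3 had 9 and 0, 902 and 526 by DESeq2, 5 and 0 with DESeq2's size factors, 544 and 264 with no filter, 23 and 1 with the replicate block, and 38 and 4 without the doubted libraries. With a clone left out it had 1 to 347 higher and 0 to 209 lower. The genotype contrasts had 0 and 0 each by edgeR. 3BKO against WT at day 6 had 32 and 31 by DESeq2, 6 and 67 with no filter, 0 and 3 without the doubted libraries, and 0 to 3 higher and 0 to 50 lower with a clone left out. 3AKO against WT at day 6 had 39 and 7, 14 and 13, and 0 and 1 under those settings, and 0 to 3 higher and 0 to 9 lower with a clone left out. 3BKO against 3AKO at day 6 had 28 and 104, 15 and 87, and 0 and 1, and 0 to 24 higher and 0 to 72 lower. 3BKO against WT at day 8 had 10 and 8, 3 and 8, and 2 and 6, and 0 to 1 higher and 0 to 4 lower. Contrasts with WT could not be fitted without WT.

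The share of cells with at least 1 of the genes was 76.98% at day 8 and 69.8% at day 6 with 1 read needed, and 60.3% at day 8 and 53.2% at day 6 with 10. With 2 markers needed, 55.7% of day 6 Fam181b cells carried the neural progenitor list and 29.8% of day 6 Pdgfra cells the mesenchyme list.

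Signs turned in these cases, in log2 units. Rspo3 in day 8 against day 6 was 0.24 with the replicate block, and with a clone left out -0.99 to 0.081, and Sema3a was -0.33 to 1.98. In 3BKO against WT at day 8 without the doubted libraries, Fam181b was 2.64, Pdgfra -2.17, Cdh11 -2.68, Tgfb2 -3.90 and Fgf10 -2.15, and with a clone left out Pdgfra was -0.45 to 1.68, Rspo3 -0.11 to 1.38, Cdh11 -0.86 to 1.43, Zfhx4 -0.83 to 0.11, Tgfb2 -2.23 to 1.35 and Fgf10 -0.70 to 0.62. With a clone left out in 3AKO against WT at day 6, Fam181b was -2.22 to 0.049, Pdgfra -1.64 to 0.64, Rspo3 -0.76 to 0.65, Zfhx4 -0.72 to 0.25 and Tgfb2 -0.27 to 2.07, and in 3BKO against 3AKO at day 6 Cdh11 was -1.01 to 0.47 and Zfhx4 -0.95 to 0.20. The causes were not tested. Leaving out the cell with most reads was an alternative chosen after seeing the data. With 1 or 2 clones per genotype, 5 residual degrees of freedom and sums that rest on few cells, differences of several fold could not be resolved.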
